A study of Mus musculus with 22 samples.

Results

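Wnt3, Wnt3a, Wnt4, Wnt5a, Wnt5b, Wnt6, Wnt8a and Wnt11 are secreted signalling proteins of the Wnt family, and their transcripts are described here in mouse gastruloids. These 8 genes were taken by symbol from the 32285 genes of the count tables, and all 8 were found. Gastruloids are aggregates of mouse embryonic stem cells that form axial tissues in culture. Here they were made from the E14Tg2A line, with 300 cells seeded per well, 48 h of aggregation and then exposure to 3 µM CHIR99021. This compound blocks GSK3, the kinase that marks beta-catenin for destruction, and so switches on the intracellular Wnt pathway without a ligand. Every group received it, so no comparison below is with untreated cells. Cells were profiled with the 10x 3′ single-cell assay, and in 3 experiments (MULTI-seq 1, 2 and 3) lipid-tethered barcodes gave each cell a gastruloid of origin. MULTI-seq 3 gave 24 gastruloids at day 3 and 16 at each of days 3.5, 4, 4.5 and 5. MULTI-seq 2 gave 12 gastruloids at each of days 4 and 4.5, and MULTI-seq 1 gave 24 at day 5. The authors' cell table also names each gastruloid neural, mesodermal or, at day 5, intermediate. At day 5 these classes held 8 neural, 9 intermediate and 7 mesodermal gastruloids in MULTI-seq 1. Those of MULTI-seq 3 held 4, 4 and 8. All gastruloids come from 1 cell line, and each test between days or between classes used gastruloids of 1 experiment. Their p-values measure the spread between aggregates within that experiment, not the spread between experiments.

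Wnt proteins are lipid-modified before secretion and bind Frizzled receptors together with a co-receptor. Signalling through Frizzled and Lrp5 or Lrp6 stabilises beta-catenin, which acts with TCF/LEF factors on target genes such as Axin2, Sp5 and T; other Wnts act mainly through Ror2 and the planar cell polarity machinery on cell movement. In the mouse embryo, Wnt3 is needed to form the primitive streak, Wnt3a maintains the progenitors of the posterior axis, and Wnt8a acts with it in the caudal embryo. Wnt5a is needed for axis extension, Wnt5b is its close relative, and Wnt11 is known for non-canonical signalling in mesoderm and heart. Wnt4 acts in kidney and gonad and is also expressed in the neural tube, and Wnt6 is expressed in ectoderm, where it acts on somite epithelialisation.

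In the GRCm38 annotation, Wnt3 (ENSMUSG00000000125) lies at chr11:103774150-103817957 on the plus strand and Wnt3a (ENSMUSG00000009900) at chr11:59248033-59290752 on the minus strand. Wnt4 (ENSMUSG00000036856) lies at chr4:137277489-137299726 (plus), Wnt5a (ENSMUSG00000021994) at chr14:28504750-28527448 (plus) and Wnt5b (ENSMUSG00000030170) at chr6:119432531-119544347 (minus). Wnt6 (ENSMUSG00000033227) lies at chr1:74771892-74785322 (plus), Wnt11 (ENSMUSG00000015957) at chr7:98835112-98855195 (plus), and Wnt8a (ENSMUSG00000012282) on chromosome 18. Annotated genes on the other strand overlap Wnt5a (Gm2670), Wnt5b (Fbxl14) and Wnt6 (Gm29539). No source used here gives the strand setting of the counting, so reads of these overlaps are uncertain.

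The promoters of 4 members are shown: those of Wnt3a and Wnt5b, whose levels were most alike over cell types, that of Wnt4, which rose where both fell, and that of Wnt11. Wnt5b and Wnt11 have more than 1 start, and the window shown is the one that holds the motif named below. It is start 3 of 3 for Wnt5b and start 1 of 2 for Wnt11, and their other windows, not shown, held no match. Each line gives the 250 bases before a start site in RefSeq (GRCm38.p6), 5′ to 3′ on the gene's strand. Capitals mark CTTTGA or its reverse complement TCAAAG, the core letters of the sequence that TCF/LEF factors bind.

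Wnt3a chr11:59290752-59291001 (minus): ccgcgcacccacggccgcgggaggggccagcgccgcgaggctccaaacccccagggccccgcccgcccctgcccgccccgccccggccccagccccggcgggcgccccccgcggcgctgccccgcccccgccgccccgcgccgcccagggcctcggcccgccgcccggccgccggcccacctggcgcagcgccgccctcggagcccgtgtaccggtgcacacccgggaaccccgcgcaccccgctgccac
Wnt5b chr6:119449387-119449636 (minus): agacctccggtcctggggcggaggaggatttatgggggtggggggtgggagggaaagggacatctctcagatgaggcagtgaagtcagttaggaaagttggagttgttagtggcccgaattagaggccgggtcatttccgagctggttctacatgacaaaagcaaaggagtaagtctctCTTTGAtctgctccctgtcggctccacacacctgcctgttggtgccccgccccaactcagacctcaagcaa
Wnt4 chr4:137277385-137277634 (plus): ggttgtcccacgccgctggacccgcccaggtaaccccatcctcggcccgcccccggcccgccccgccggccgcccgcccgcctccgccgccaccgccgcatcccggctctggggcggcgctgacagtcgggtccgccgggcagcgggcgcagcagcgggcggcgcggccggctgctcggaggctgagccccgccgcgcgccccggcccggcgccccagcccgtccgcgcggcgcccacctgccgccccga
Wnt11 chr7:98834862-98835111 (plus): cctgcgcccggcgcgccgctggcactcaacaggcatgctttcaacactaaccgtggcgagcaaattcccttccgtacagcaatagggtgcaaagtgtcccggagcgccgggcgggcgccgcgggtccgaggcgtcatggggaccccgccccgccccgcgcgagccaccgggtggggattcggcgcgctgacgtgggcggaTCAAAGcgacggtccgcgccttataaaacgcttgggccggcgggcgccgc

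The RefSeq table held 6 of the 8 members with 9 such windows, and it lists neither Wnt5a nor Wnt8a. The motif was found on either strand in 1 of the 3 Wnt5b windows, 71 bases before that start, and in 1 of the 2 Wnt11 windows, 50 bases before it. Of all 32851 windows of the same length in the table, 13.8% held it. The windows of Wnt3 (chr11:103773925-103774174), Wnt3a, Wnt4 and Wnt6 (chr1:74771642-74771891) held no match. The Wnt3a and Wnt4 windows held 41 and 44 CG dinucleotides, against a median of 6 over all windows. Those of Wnt3 and Wnt6 held 22 and 28, and the 2 of Wnt11 held 37 (with the match) and 16. The 3 Wnt5b windows, from the one with the match, which is the last along the gene, held 7, 4 and 35. Counts of 3′ ends do not show which start site was used.

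In all, 77674 cells passed the authors' filters and 53730 of them carried a gastruloid call, over 136 gastruloids. The 135 gastruloids with at least 30 cells were used, with 1293296 to 57333371 unique molecular identifiers (UMIs, each 1 counted RNA molecule) apiece. In those with a call, the members had between 1281 UMIs (Wnt11) and 77081 (Wnt5a), so Wnt11 and Wnt6 (3520 UMIs) were measured with the least precision. The authors' names for the cell types were checked against lists of 4 marker genes, as a description. Related types, such as those of PSM or those of Neurectoderm and Spinal Cord, shared a list, so the check does not separate early from late names. Early and Late Nascent Mesoderm, Anterior Primitive Streak and Head Mesoderm had no list. In 16 of 18 types checked, the type's own list ranked among the 5 highest of 22 types; the exceptions were Early Neurectoderm (rank 9) and Caudal Neurectoderm (rank 6), in both of which Pax6 was under 5 CPM. Pax6 was also under 5 CPM in Early Spinal Cord, and the PSM marker Msgn1 in Early and Late Anterior PSM. Across the 18 lanes, 732 barcodes (0.951%) occurred in more than 1 lane, 95 of them within 1 pool.

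Levels are UMIs of a gene relative to all UMIs of a gastruloid's cells, scaled to CPM (counts per 1e6 UMIs), given as the mean ± SD over gastruloids. As counts of 3′ ends they are not scaled by gene length, and the members are not ranked against each other. By cell type in MULTI-seq 3, the mean level of each member is shown in the map of mean levels. The order of types is a description with no test, because the types were clusters of gene expression that included these genes. Neighbours in an order are said to be apart where their means differed by more than the larger of their SDs, which held for 5 of 168 neighbouring pairs. Values by type pool the gastruloids of all days from 3 to 5, and the types differ in the days on which they occurred, so an order mixes types with days.

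Among the canonical ligands, Wnt3 was highest in Early Nascent Mesoderm (35.2 ± 8.48 CPM, n = 30 gastruloids), apart from Notochord in second place (22.9 ± 12.0, n = 15). Anterior Primitive Streak (19.5 ± 7.88, n = 4) and Primitive Streak (15.4 ± 6.06, n = 45) followed within the spread of their neighbours. Wnt3a was highest in NMPs, the neuromesodermal progenitors (43.7 ± 12.1, n = 44), and in Caudal Epiblast (39.3 ± 15.4, n = 38), which did not differ beyond their spread. Both lay above Notochord (20.8 ± 9.98), and the step from Caudal Epiblast to Notochord exceeded the spread. Wnt3a fell away again between Early Nascent Mesoderm (6.10 ± 3.86) and the next type, Early Spinal Cord (1.76). Wnt8a had its highest levels in Caudal Neurectoderm (61.2 ± 16.4, n = 22), Early Neurectoderm (51.8 ± 21.4, n = 31) and Caudal Epiblast (48.0 ± 13.3, n = 38), with Primitive Streak (34.7 ± 14.3, n = 45) and Late Neurectoderm (29.4 ± 23.7, n = 12) behind them, and no pair of neighbours in that order was apart. Among types with at least 3 gastruloids on a day, Early Neurectoderm led for Wnt8a at day 3.5 (68.5), Caudal Epiblast at day 4 (49.6) and Late Neurectoderm at day 5 (15.1).

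Wnt6 was highest in Early Posterior PSM, the presomitic mesoderm (10.8 ± 9.85 CPM, n = 42), ahead of Primitive Streak (7.57 ± 3.62) within the spread. Wnt4 was highest in NMPs (19.6 ± 12.6, n = 44), Cardiopharyngeal Mesoderm (16.6 ± 19.3, n = 9, lowest 3.61, median 6.86 and highest 57.5), Late Spinal Cord (15.0 ± 13.0, n = 20) and Notochord (9.89 ± 8.24, n = 15). No neighbours among these were apart. Within days this order changed: among types with at least 3 gastruloids, NMPs led for Wnt4 at day 4.5 (27.9 CPM, with Late Spinal Cord at 9.55), and Late Spinal Cord led at day 5 (27.6, with NMPs at 12.3).

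Of the ligands known for non-canonical signalling, Wnt5a was, over all days, high in Early Anterior PSM (99.4 ± 13.4 CPM, n = 15), Early Spinal Cord (96.4 ± 38.8, n = 46), NMPs (92.3 ± 29.4, n = 44) and Late Anterior PSM (83.9 ± 21.0, n = 34). At day 5 alone, Early Spinal Cord (136.8 CPM) and NMPs (122.8) led. At the low end it was apart between Mature Endoderm (10.7 ± 5.67), Anterior Primitive Streak (3.63 ± 1.16) and Endothelium, where it was 0 in all 6 gastruloids. These low steps rest on few counts. Anterior Primitive Streak held 6 Wnt5a UMIs over 4 gastruloids, and in Endothelium 4 UMIs of Wnt4 made 1.13 CPM. Its relative Wnt5b instead followed Wnt3a, with Caudal Epiblast (28.6 ± 12.3), NMPs (28.0 ± 12.8) and Notochord (20.8 ± 7.49) at the top. Wnt11 was low everywhere and highest in Mature Endoderm (4.42 ± 2.88, n = 33, at 0 in 3); no Wnt11 UMI was found in the NMPs of any of the 44 gastruloids.

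After each cell was thinned to 5000 UMIs, the share of cells with a UMI of the gene gave the same leading type as the level for Wnt3, Wnt3a, Wnt5a, Wnt5b, Wnt8a and Wnt11, but not for Wnt4 (Late Spinal Cord, 7.99%) or Wnt6 (Epiblast, 4.42%, a type not among the 22 of the level order, followed by Primitive Streak with 3.74%). With cells thinned in this way, Wnt5a was detected in 39.0% of 1870 Early Anterior PSM cells (95% exact interval 36.8% to 41.3%) and Wnt8a in 26.3% of 1135 Caudal Neurectoderm cells (23.7% to 28.9%). Wnt3a was detected in 19.3% of 1710 NMPs (17.5% to 21.3%). In Endothelium, where Wnt3, Wnt3a, Wnt5a, Wnt6 and Wnt8a were at 0 CPM in all 6 gastruloids of the level order, 1 of 135 cells held a Wnt5a UMI (0.741%) and none held Wnt3a or Wnt8a, which allows a share of up to 2.22% of cells with a UMI after thinning (3 counts of the total). Median depths were 29150, 34952, 29344 and 31558 UMIs per cell in these 4 types, and without thinning the first 3 shares were 87.9%, 82.6% and 62.8%, and that of Wnt5a in Endothelium 2.96%. Without thinning, Caudal Epiblast led for Wnt3a (69.6%) and Early Spinal Cord for Wnt5a (88.2%). These intervals cover counting error only.

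The genes whose levels over the 22 types were most like a member's are named by Pearson's r of log2(mean CPM + 1), among 7538 genes, as a description. The types share libraries and depth, and they include related states, so r is not a test. Wnt3a was most like Fgf4 (0.953), Amph (0.923) and Wnt5b (0.922), and Wnt5b in turn like Wnt3a, Cdx1 (0.894) and Cox7a2 (0.893). Wnt6 was most like Cdx1 (0.948), Sprr2a3 (0.908) and T (0.907), and Wnt8a like Nkx1-2 (0.936), Stmn3 (0.929) and Lhpp (0.907). Wnt5a was most like Sdc1 (0.870), Luc7l (0.840) and Sp4 (0.836). For Wnt3 they were Dnaja3 (0.870), Oxct1 (0.853) and Dppa5a (0.850), for Wnt11 Hexa (0.873), Serpinb6a (0.867) and Slc39a8 (0.859), and for Wnt4 only Arhgap32 (0.739), Tmx1 (0.715) and Lpin2 (0.713) came near.

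The UMIs of each transcript were then traced to the cell types that held them. For Wnt3a in MULTI-seq 3 the main source passed from Primitive Streak to Caudal Epiblast to NMPs. Primitive Streak cells held 70.9% of Wnt3a UMIs at day 3, when they were 56.8% of cells. Caudal Epiblast held 42.8% at day 3.5 (16.6% of cells) and 37.9% at day 4 (4.91% of cells), and NMPs held 24.9%, 61.0% and 73.1% at days 4, 4.5 and 5 (3.30%, 7.89% and 7.68% of cells). In MULTI-seq 1 at day 5 the NMPs, 11.1% of cells, held 71.3%.

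The main source of Wnt4 differed between days. In MULTI-seq 3, Primitive Streak cells held 67.2% of its UMIs at day 3 (56.8% of cells) and Early Posterior PSM 27.6% at day 4 (13.9% of cells). NMPs held 30.7% at day 4.5 (7.89% of cells), and Late Spinal Cord 60.6% at day 5 (18.9% of cells), against 50.1% in MULTI-seq 1 (17.2% of cells). In MULTI-seq 2, Early Posterior PSM held 31.7% of Wnt4 UMIs at day 4 (13.4% of cells). At day 4.5 of that experiment Mature Somites led with 14.1%, which is below their share of cells (22.0%). Late Spinal Cord followed (13.1%, 9.57% of cells), and NMPs were not among the first 4 types. In MULTI-seq 3, the leading source of Wnt5a UMIs was Early Posterior PSM at day 3.5 (33.8% from 26.3% of cells) and Early Anterior PSM at day 4 (25.8% from 13.0% of cells). At days 4.5 and 5 it was Early Spinal Cord (43.8% and 44.4%, from 20.6% and 16.9% of cells). For Wnt8a, Primitive Streak led at day 3 with 59.1%, close to its share of cells (56.8%). Caudal Neurectoderm led at day 3.5 (27.6% from 15.5% of cells), with Caudal Epiblast close behind (23.5% from 16.6%). Then came Caudal Epiblast at day 4 (27.9% from 4.91% of cells), Early Spinal Cord at day 4.5 (31.0% from 20.6%) and Late Spinal Cord at day 5 (50.1% from 18.9%).

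Wnt5b UMIs followed Wnt3a's at first, with 41.6% from Caudal Epiblast at day 3.5, and were then more divided, with 29.8% from NMPs and 20.6% from Early Spinal Cord at day 5. Late Nascent Mesoderm, 9.72% of cells, held 38.7% of Wnt3 UMIs at day 4 of MULTI-seq 3, and Notochord, 1.25% of cells, held 21.9% at day 5, behind Late Spinal Cord (28.8%). At day 4 of MULTI-seq 2, Late Nascent Mesoderm (7.83% of cells) held 11.6% of Wnt3 UMIs, behind Notochord (19.6%) and Early Posterior PSM (14.5%). The leading type at day 4 of MULTI-seq 2 also differed for Wnt5a (Early Posterior PSM, 18.5%, with Early Anterior PSM at 15.9%) and Wnt8a (Caudal Neurectoderm, 35.3%, with Caudal Epiblast at 17.6%). In MULTI-seq 3, Wnt6 came from Early Posterior PSM at day 3.5 (40.7%) and day 4 (30.3%). Mature Endoderm, 8.64% of cells, held 57.7% of Wnt11 UMIs at day 4. These shares pool the gastruloids of a day and describe where the molecules lay.

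**Figure D1:**
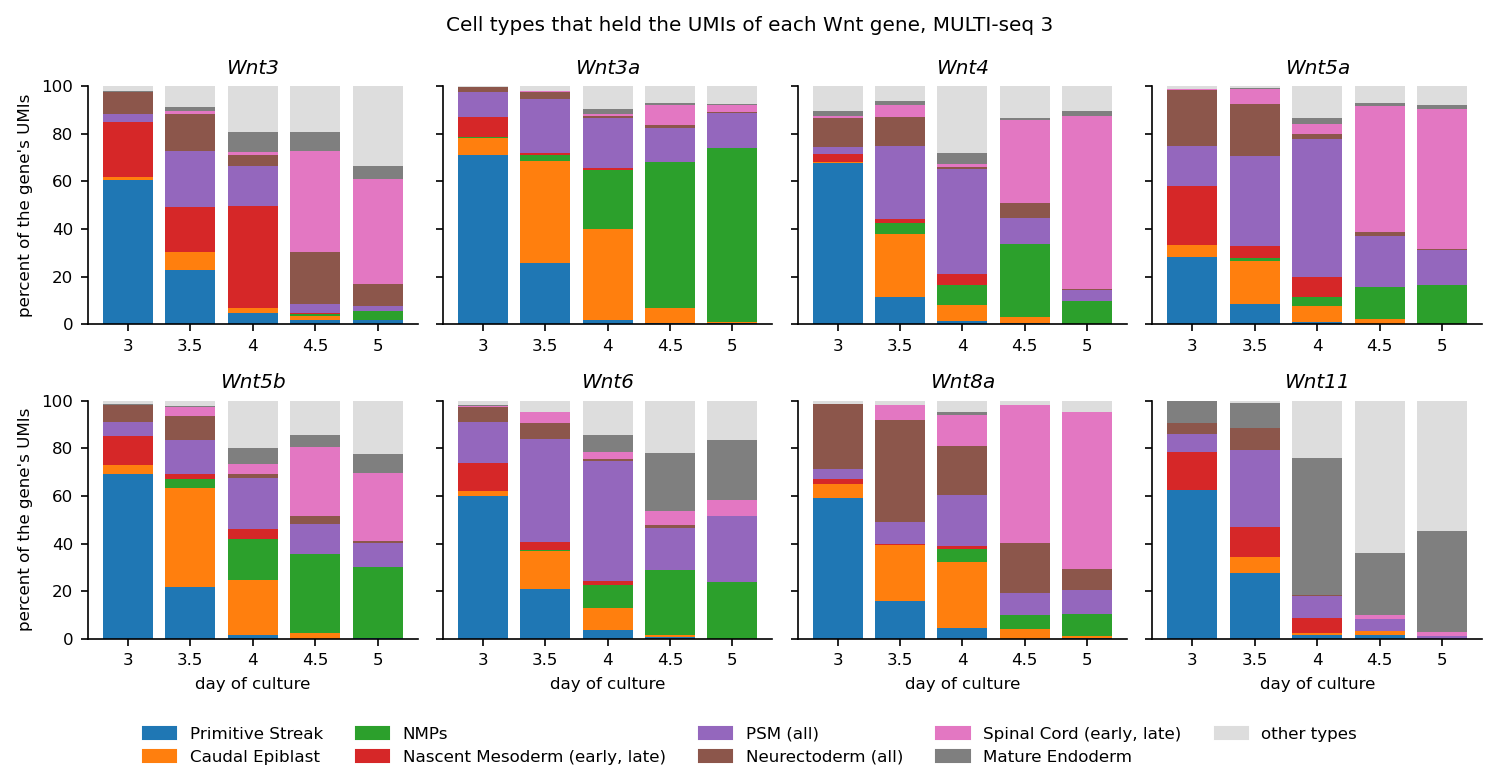
Share of each gene's UMIs (percent, vertical axis) by group of cell types (colours) and day of culture (horizontal axis) in MULTI-seq 3, over all cells with a gastruloid call; the Primitive Streak group includes Anterior Primitive Streak. The Nascent Mesoderm, PSM, Neurectoderm and Spinal Cord groups also join several types. The source of Wnt3a passes to Caudal Epiblast and then to NMPs (73.1% at day 5), while that of Wnt4 ends in the Spinal Cord group, where Late Spinal Cord alone held 60.6%.

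The question of how ligand levels changed over time was tested where gastruloids of 2 days were pooled in the same lanes. UMI sums per gastruloid were compared with edgeR's quasi-likelihood test over all genes, and adjusted p-values are Benjamini-Hochberg values over all genes tested. A gene was called at an adjusted p under 0.05. In such sums, fewer cells of a type and less RNA per cell cannot be told apart. Fold changes are log2 values, later minus earlier day, with their standard error (SE).

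In MULTI-seq 3, the ligands Wnt3, Wnt3a, Wnt5b, Wnt6 and Wnt8a fell between days 3.5 and 4, and Wnt4 and Wnt11 rose. Of the 8 members, 7 were called, 2 higher and 5 lower, where 60.4% of the 13262 genes tested were called (31.1% higher and 29.2% lower), so the number called is not a result about the members. The direction and size of each follow.

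Wnt6 stood at 5.52 ± 2.21 CPM at day 3.5 (lowest 1.89, median 5.07, highest 8.89, n = 16) and at 1.52 ± 0.927 at day 4 (0.523, 1.38 and 4.38, n = 16). All 16 day 4 gastruloids lay below the day 3.5 median, though the groups overlapped, and the fold change was -1.91 (SE 0.25, edgeR adjusted p = 1.27e-07). Wnt8a was 41.5 ± 16.5 CPM (13.4, 48.2 and 64.2) at day 3.5 and 11.3 ± 15.8 (2.78, 5.52 and 61.4) at day 4, a fold change of -1.94 (SE 0.40, edgeR adjusted p = 0.000106). Of the 16 gastruloids of day 4, 15 lay below the day 3.5 median. The 2 neural ones had 37.3 and 61.4 CPM and the 14 mesodermal ones 5.85 ± 3.08, where day 3.5 had 52.8 ± 6.33 in neural and 22.7 ± 7.92 in mesodermal gastruloids.

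Wnt5b went from 14.3 ± 5.76 CPM (4.13, 13.5 and 25.95) to 6.91 ± 2.78 (3.94, 6.24 and 13.1), with 16 of 16 below the earlier median and a fold change of -1.10 (SE 0.20, edgeR adjusted p = 2.89e-05). Wnt3a went from 14.7 ± 6.47 CPM (3.36, 13.9 and 28.3) to 6.49 ± 3.99 (2.16, 5.45 and 14.9), lower in 14 of 16 (-1.22, SE 0.27, edgeR adjusted p = 0.00028). Wnt3 fell least, from 6.71 ± 2.88 CPM (3.51, 6.02 and 12.8) to 4.15 ± 3.27 (1.32, 3.30 and 12.2), lower in 14 of 16 (-0.72, SE 0.29, edgeR adjusted p = 0.0337). That call was lost with no filter on low counts (adjusted p = 0.0532) and without lane D (0.0515).

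Wnt4 rose from 2.45 ± 1.70 CPM (0, 2.00 and 7.31) to 7.54 ± 3.70 (3.77, 5.93 and 17.2), above the earlier median in 16 of 16 gastruloids (+1.52, SE 0.27, edgeR adjusted p = 1.62e-05). Wnt11, at the edge of detection, rose from 0.439 ± 0.214 CPM (0.140, 0.390 and 0.831) to 1.19 ± 0.899 (0.0617, 1.15 and 3.50), higher in 14 of 16 (+1.41, SE 0.35, edgeR adjusted p = 0.00105), but it did not pass the filter without lane B, C or D or with thinned cells. By class, Wnt11 was 0.652 ± 0.154 and 1.35 ± 0.842 CPM in mesodermal gastruloids (n = 6 and 14), and in neural ones 0.311 ± 0.122 (n = 10) and 0.0617 and 0.0683 in the 2 of day 4. Wnt5a was 46.1 ± 10.3 CPM (25.9, 46.8 and 62.4) at day 3.5 and 49.2 ± 14.5 (22.6, 49.9 and 72.7) at day 4, a difference not called (+0.06, SE 0.14, edgeR adjusted p = 0.736). The ranges of the 2 days overlapped for all 8 members.

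The classes were unequal on these days, with 10 neural and 6 mesodermal gastruloids at day 3.5 and 2 and 14 at day 4. Among mesodermal gastruloids alone, where 47.6% of genes were called, the same 7 members were called with the same signs: Wnt6 -2.39, Wnt8a -2.02, Wnt3a -1.60, Wnt5b -1.46, Wnt3 -1.19, Wnt4 +1.07 and Wnt11 +1.01 (edgeR adjusted p from 3.77e-06 for Wnt6 to 0.0432 for Wnt11).

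**Figure D2:**
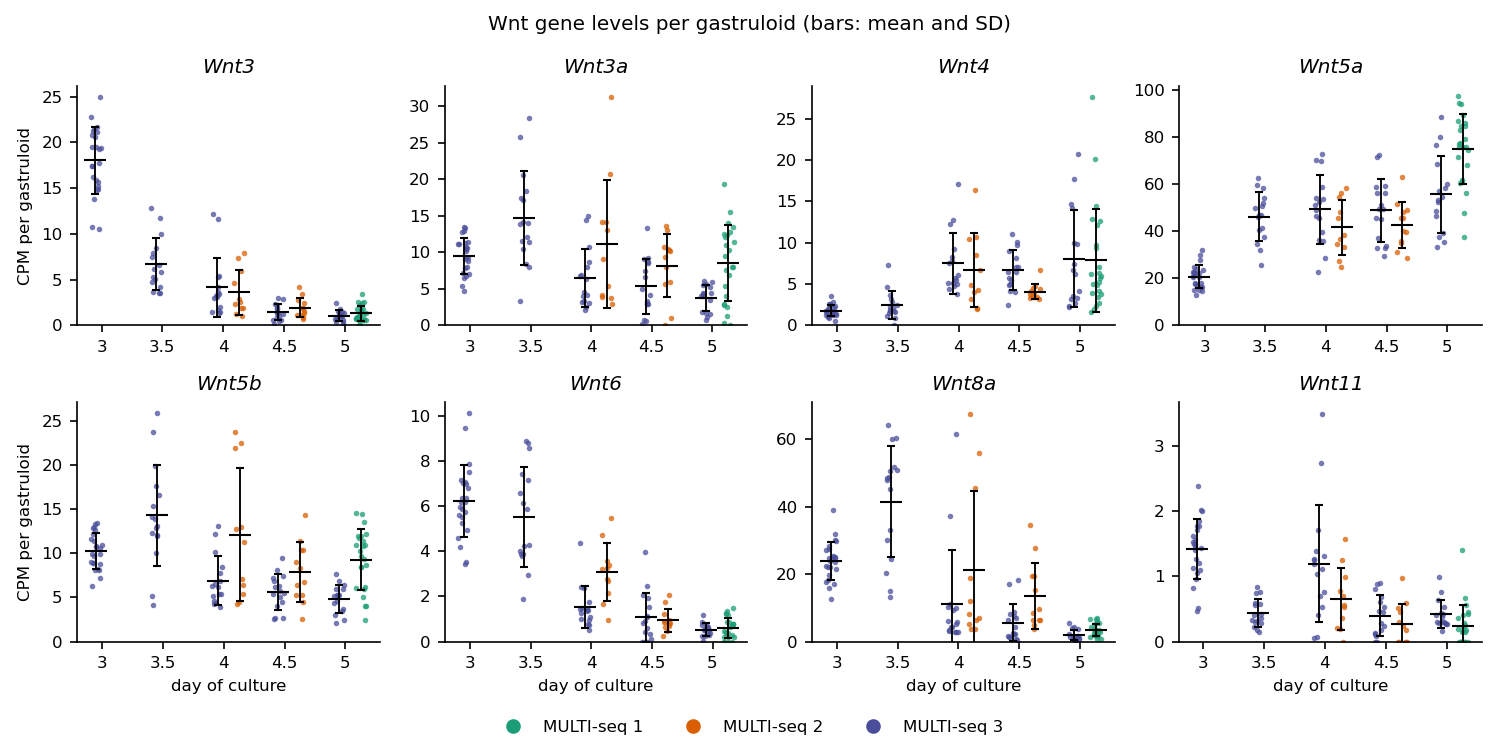
Level of each Wnt gene in whole gastruloids (vertical axis, CPM; 1 point per gastruloid, bars mean and SD) by day of culture (horizontal axis), coloured by experiment. In MULTI-seq 3, Wnt3 was highest at day 3 (18.0 CPM), Wnt8a at day 3.5 (41.5), and Wnt5a was 20.7 at day 3 and 46.1 to 55.6 from day 3.5 on.

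From day 4.5 to day 5 in MULTI-seq 3, 1 of the 6 members that passed the filter on low counts was called, against 13.5% of 12298 genes (6.35% higher and 7.11% lower). Wnt6 and Wnt11 did not pass the filter. Wnt8a fell from 5.66 ± 5.51 CPM (0.547, 3.45 and 18.4, n = 16) to 1.90 ± 1.56 (0.480, 1.25 and 5.54, n = 16), with 12 of 16 below the earlier median (-1.51, SE 0.43, edgeR adjusted p = 0.0172). Day 4.5 held 7 neural and 9 mesodermal gastruloids and day 5 held 4, 8 and 4 intermediate ones, and Wnt8a was higher in the neural class on both days. Among mesodermal gastruloids alone its change was -1.09 and no longer called (edgeR adjusted p = 0.0534; 0 of 5 members, 6.68% of genes), and among neural ones it was -1.23 (adjusted p = 0.0188; 2 of 6 members, 8.01% of genes). The other called member among neural gastruloids was Wnt4 (+1.09, edgeR adjusted p = 0.00156), which in mesodermal ones had -0.80 (adjusted p = 0.0608) and over all gastruloids +0.28 (adjusted p = 0.589).

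In MULTI-seq 2 between days 4 and 4.5, 0 of 6 members tested were called by edgeR or by DESeq2, against 7.36% of 11064 genes by edgeR, and 2 had an unadjusted p under 0.05. These were Wnt4, at 6.66 ± 4.47 CPM (n = 11) and 4.11 ± 0.963 (n = 12; -0.70, edgeR adjusted p = 0.0961), and Wnt3, at 3.62 and 1.96 CPM (-0.82, edgeR adjusted p = 0.143). Wnt6 did not pass the filter on low counts. It was 3.07 CPM at day 4 and 0.949 at day 4.5, with 12 of 12 below the earlier median, and it was called lower with no filter (-1.59, edgeR adjusted p = 0.00206), with gastruloids of at least 100 cells (-1.31, 0.0259) and among mesodermal gastruloids (-1.13, 0.0294; 7.8% of genes called). With at least 100 cells no neural gastruloid of day 4 was left (at most 92 cells), while neural ones of day 4.5 stayed, so day and class are mixed in that setting.

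The remaining steps of MULTI-seq 3 lie between pools, so that pool and day cannot be told apart, and their values are only given side by side. Wnt3 was 18.0 ± 3.64 CPM at day 3 (10.6, 18.5 and 24.9, n = 24) and 6.71 ± 2.88 at day 3.5, and Wnt5a 20.7 ± 4.87 and 46.1 ± 10.3. Wnt8a was 24.0 ± 5.70 at day 3 and 41.5 ± 16.5 at day 3.5. Wnt3a was 9.55 ± 2.47 and 14.7 ± 6.47, Wnt6 6.24 ± 1.60 and 5.52 ± 2.21, and Wnt11 1.42 ± 0.463 and 0.439 ± 0.214. By day 4.5 Wnt3 stood at 1.47 ± 0.860 and Wnt6 at 1.09 ± 1.09, and by day 5 at 1.08 ± 0.585 and 0.532 ± 0.278.

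Levels were next compared within cell types, where the share of a type in the gastruloid does not enter, but cell states within a named type can still differ between days. Types with at least 6 gastruloids of at least 10 cells on each day were tested, with p-values adjusted over all genes and types of a comparison. From day 3.5 to day 4, Caudal Epiblast, the progenitor region of the posterior embryo, and Early Posterior PSM, its mesodermal neighbour, could be tested. Of the 12 member tests, 10 were called, 4 higher and 6 lower, against 30.5% of the 18340 gene tests, 15.8% higher and 14.8% lower (23.7% called in Caudal Epiblast and 36.8% in Early Posterior PSM).

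In Early Posterior PSM the 5 ligands that fell in whole gastruloids fell too. Wnt3a went from 18.2 ± 9.52 CPM (5.42, 16.7 and 35.5, n = 13) to 3.25 ± 1.92 (0.709, 3.08 and 6.79, n = 16). All 16 gastruloids of day 4 lay below the earlier median and the ranges met only at their edges (-2.44, SE 0.27, edgeR adjusted p = 9.97e-09). Wnt6 was 12.7 ± 8.73 CPM (4.56, 10.3 and 37.2) and then 4.74 ± 6.10 (1.25, 2.73 and 26.4), lower in 15 of 16 (-1.60, SE 0.27, edgeR adjusted p = 1.39e-05). Wnt5b was 10.5 ± 4.83 CPM and then 3.49 ± 1.64, lower in 16 of 16 (-1.40, SE 0.21, edgeR adjusted p = 1.84e-06).

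Wnt8a in the same cells was 19.0 ± 10.7 CPM and then 9.30 ± 6.98 (-1.06, edgeR adjusted p = 0.000679), and Wnt3 5.88 ± 2.66 and then 3.28 ± 1.5, lower in 16 of 16 (-0.86, edgeR adjusted p = 0.000977; under the filter without lane B, C or D). Wnt4 moved the other way, from 2.30 ± 2.73 CPM (0, 1.75 and 10.2) to 14.9 ± 7.23 (0, 15.9 and 28.8), higher in 15 of 16 (+2.33, SE 0.31, edgeR adjusted p = 4.16e-07). With its low day 3.5 values, Wnt4 could enter this test through the day 4 gastruloids alone, and the same holds for Wnt4 in Caudal Epiblast below. Wnt5a was 66.6 ± 16.0 and 61.4 ± 10.3 CPM, below the earlier median in 9 of 16 (-0.21, edgeR adjusted p = 0.0447), and that call was lost with DESeq2 (0.0608), with no filter (0.0617), without lanes A, C or D (up to 0.0967) and among mesodermal gastruloids (0.0937).

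In Caudal Epiblast 3 of 5 members tested were called, all higher. Wnt3, Wnt6 and Wnt11 did not pass the filter on low counts there. Wnt6 was 4.97 CPM at day 3.5 and 3.15 at day 4, with 12 of 15 below the earlier median. With no filter Wnt6 was called lower (-0.74, edgeR adjusted p = 0.0486). Wnt3 was 2.75 and 2.11 CPM, with 11 of 15 below the earlier median. Wnt3a was 35.0 ± 10.3 CPM (18.4, 36.2 and 55.1, n = 15) and then 48.9 ± 11.5 (27.7, 49.0 and 67.4, n = 15), above the earlier median in 13 of 15 (+0.48, SE 0.13, edgeR adjusted p = 0.00309). Among mesodermal gastruloids this was +0.26 and not called (adjusted p = 0.124). Wnt4 was 4.07 ± 3.18 and then 11.6 ± 5.29 CPM (+1.36, SE 0.29, edgeR adjusted p = 0.000302; under the filter without lane A, C or D), and Wnt5a 50.2 ± 9.68 and then 73.1 ± 16.8 (+0.51, SE 0.10, edgeR adjusted p = 8.39e-05), both above the earlier median in 15 of 15.

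Wnt8a in Caudal Epiblast was 53.5 ± 8.50 and 49.6 ± 10.6 CPM (-0.01, edgeR adjusted p = 0.94) and Wnt5b 34.5 ± 11.1 and 31.3 ± 7.35 (-0.09, adjusted p = 0.657), neither called. Among mesodermal gastruloids Wnt5b was called lower (-0.37, edgeR adjusted p = 0.0182). In all, 9 of 12 member tests were called among mesodermal gastruloids, against 22.6% of gene tests.

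**Figure D3:**
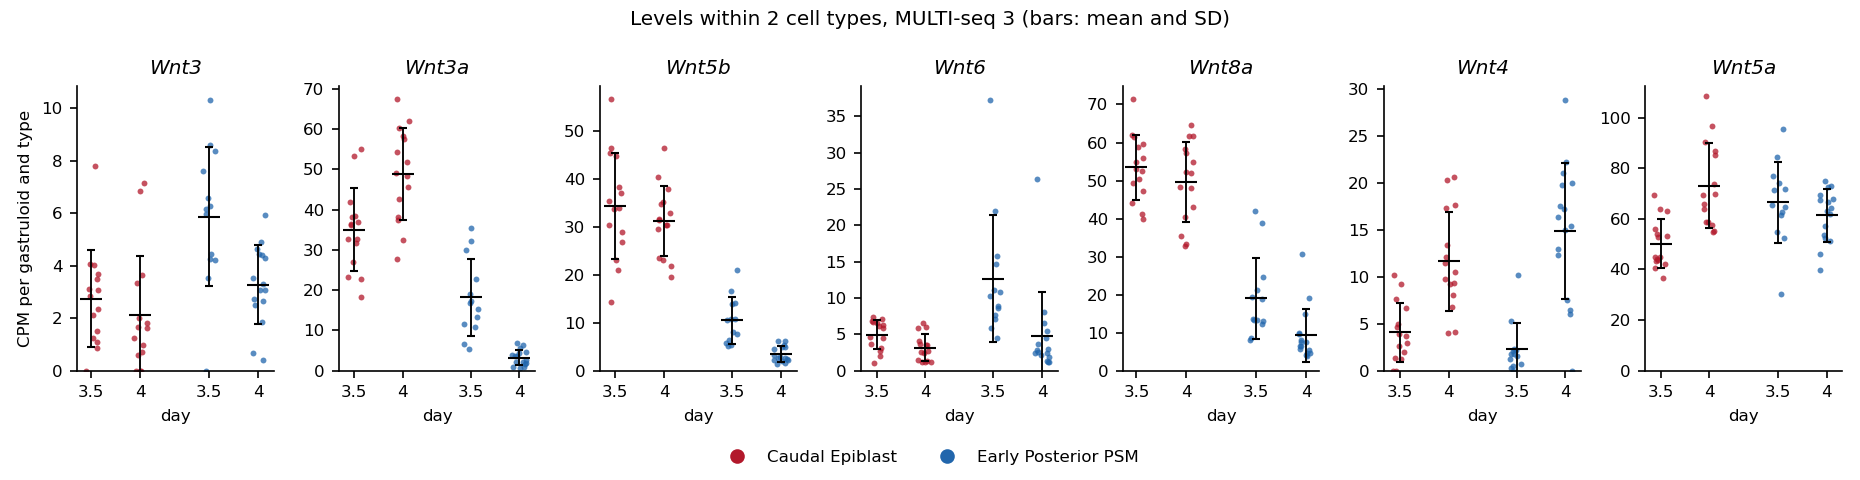
Levels of 7 Wnt genes (vertical axes, CPM per gastruloid; 1 point per gastruloid, bars mean and SD, cut at 0) at days 3.5 and 4 of MULTI-seq 3 within Caudal Epiblast (red) and Early Posterior PSM (blue). Wnt3a went from 35.0 to 48.9 CPM in Caudal Epiblast and from 18.2 to 3.25 in Early Posterior PSM, while Wnt4 was higher at day 4 in both.

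Whether the day effect differed between the 2 types was tested after these values had been seen, with the gastruloid as a block. The effect in Caudal Epiblast minus that in Early Posterior PSM was 2.87 for Wnt3a (SE 0.36, edgeR adjusted p = 2.81e-07). It was 1.28 for Wnt5b (adjusted p = 0.00105), 1.14 for Wnt8a (0.00182), 0.69 for Wnt5a (0.000199) and -1.59 for Wnt4 (0.00568), and that of Wnt6 was not called (0.76, edgeR adjusted p = 0.316). In this test 12.6% of 9767 genes were called. Among mesodermal gastruloids the same 5 members were called with the same signs (Wnt3a 2.29, Wnt5b 0.78, Wnt8a 1.01, Wnt5a 0.64 and Wnt4 -1.52, edgeR adjusted p from 1.08e-06 to 0.0244), where 6.76% of 10647 genes were.

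Markers of other types moved within both names. In Early Posterior PSM the summed level of 4 somite markers (Meox1, Tcf15, Pax3 and Foxc2) was 8.87 to 60.8 CPM at day 3.5 (median 19.6) and 99.0 to 256 at day 4 (median 145). Its 4 Caudal Epiblast and NMP markers (Nkx1-2, T, Sox2 and Cdx2) went from a median of 275 CPM (166 to 732) to 93.7 (72.3 to 223), while its own PSM markers had medians of 609 and 638. In Caudal Epiblast the PSM markers had a median of 235 CPM at day 3.5 and 436 at day 4, the Epiblast markers 409 and 193, and its own markers 1111 and 1003. None of these lists was at 0, and their part in the member results was not tested.

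From day 4.5 to day 5, 8 types could be tested. Of 14 member tests 6 were called, 4 higher and 2 lower, against 7.39% of the 65409 gene tests (3.52% higher and 3.87% lower), and they were Wnt5a in 3 types, Wnt4 in 2 and Wnt8a in 1. Wnt5a, which in whole gastruloids was 48.8 ± 13.3 and 55.6 ± 16.2 CPM and not called (+0.17, edgeR adjusted p = 0.489), rose in Early Spinal Cord, NMPs and Late Posterior PSM.

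In Early Spinal Cord (10.6% of genes called) Wnt5a was 91.8 ± 10.8 CPM at day 4.5 (72.7, 90.1 and 108, n = 15) and 136.8 ± 18.9 at day 5 (113.6, 134.8 and 171, n = 16). The groups did not overlap (+0.54, SE 0.06, edgeR adjusted p = 3.42e-09). In NMPs (7.54% of genes called) it was 84.8 ± 15.4 (61.7, 80.0 and 112, n = 13) and 122.8 ± 17.7 (96.3, 126.5 and 163, n = 16), higher in 16 of 16 (+0.47, SE 0.07, edgeR adjusted p = 1.21e-05). In Late Posterior PSM (7.12% of genes called) it was 51.7 ± 9.82 (n = 12) and 63.7 ± 8.20 (n = 16), higher in 15 of 16 (+0.35, SE 0.08, edgeR adjusted p = 0.00197).

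In Late Spinal Cord, Mature Endoderm, Somites, Mature Somites and Late Anterior PSM no change of Wnt5a was called. Late Spinal Cord had 29.1 ± 9.05 and 48.1 ± 19.3 CPM (+0.60, SE 0.25, edgeR adjusted p = 0.152). All 7 of its gastruloids at day 4.5 were neural but only 4 of the 8 at day 5, so class and day are mixed in this type. Among neural ones the change was +0.18 (edgeR adjusted p = 0.709). Late Anterior PSM had -0.24 (adjusted p = 0.193), which without lane C was -0.44 and called (0.0120). Side by side, Early Spinal Cord had 80.3 ± 10.8 CPM of Wnt5a at day 4.5 of MULTI-seq 2 (n = 11) and 149 ± 18.7 at day 5 of MULTI-seq 1 (n = 23), and NMPs 76.7 ± 5.47 (n = 8) and 116 ± 25.9 (n = 22).

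Wnt4 moved in opposite directions in Late Spinal Cord and NMPs. In Late Spinal Cord (7.63% of genes called) it rose from 9.55 ± 3.46 CPM (5.58, 8.36 and 16.2, n = 7) to 27.6 ± 11.1 (17.8, 23.7 and 53.0, n = 8) with no overlap (+1.46, SE 0.21, edgeR adjusted p = 3.24e-05). In NMPs it fell from 27.9 ± 15.1 CPM (7.96, 21.3 and 62.9, n = 13) to 12.3 ± 8.35 (0, 11.9 and 29.9, n = 16), with 13 of 16 below the earlier median (-1.30, SE 0.26, edgeR adjusted p = 0.000562). The difference between these 2 effects, tested after they had been seen in 4 gastruloids of day 4.5 and 8 of day 5 with both types, was -3.09 for NMPs minus Late Spinal Cord (SE 0.37, edgeR adjusted p = 4.25e-06), where 0.59% of 9828 genes were called. The fall in NMPs was -1.51 among mesodermal and -1.74 among neural gastruloids, and the rise in Late Spinal Cord was +1.44 among neural ones, all called. In Early Spinal Cord, Wnt4 was also called higher among neural gastruloids (n = 7 and 4; +0.96, SE 0.24, edgeR adjusted p = 0.0205). Over all gastruloids it did not pass the filter on low counts in this type. There it was 3.57 and 4.68 CPM, with 10 of 16 above the earlier median.

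The values of the other experiments are given side by side, with no test, since experiment and day cannot be told apart there. Wnt4 in Late Spinal Cord was 5.62 ± 2.06 CPM at day 4.5 of MULTI-seq 2 (n = 5) and 16.6 ± 11.4 at day 5 of MULTI-seq 1 (n = 15, 3 at 0). In NMPs it was 7.55 ± 3.83 (n = 8) and 11.9 ± 8.14 (n = 22). The order of the days in Late Spinal Cord was that of MULTI-seq 3, and in NMPs it was not.

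Wnt8a fell in Late Spinal Cord from 9.99 ± 3.08 CPM (6.39, 10.7 and 14.9) to 4.41 ± 2.34 (0.914, 4.14 and 7.35), below the earlier median in 8 of 8 (-0.99, SE 0.24, edgeR adjusted p = 0.00892). Among neural gastruloids alone, the class of all those of day 4.5 in this type, Wnt8a changed by -0.76 (edgeR adjusted p = 0.0231). In Early Spinal Cord it did not pass the filter on low counts; it was 6.74 ± 5.65 and 1.88 ± 1.46 CPM and was called with no filter (-1.90, edgeR adjusted p = 1.7e-05). Wnt3a in NMPs was 44.6 ± 11.3 and 36.3 ± 12.0 CPM (-0.35, edgeR adjusted p = 0.0691) and Wnt5b there 23.8 and 19.2 (-0.41, adjusted p = 0.0903), neither called. Wnt3a in Early Spinal Cord did not pass the filter. There it was 2.38 and 0.483 CPM, with 15 of 16 below the earlier median, and was called lower with no filter (-2.11, edgeR adjusted p = 0.00617).

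**Figure D4:**
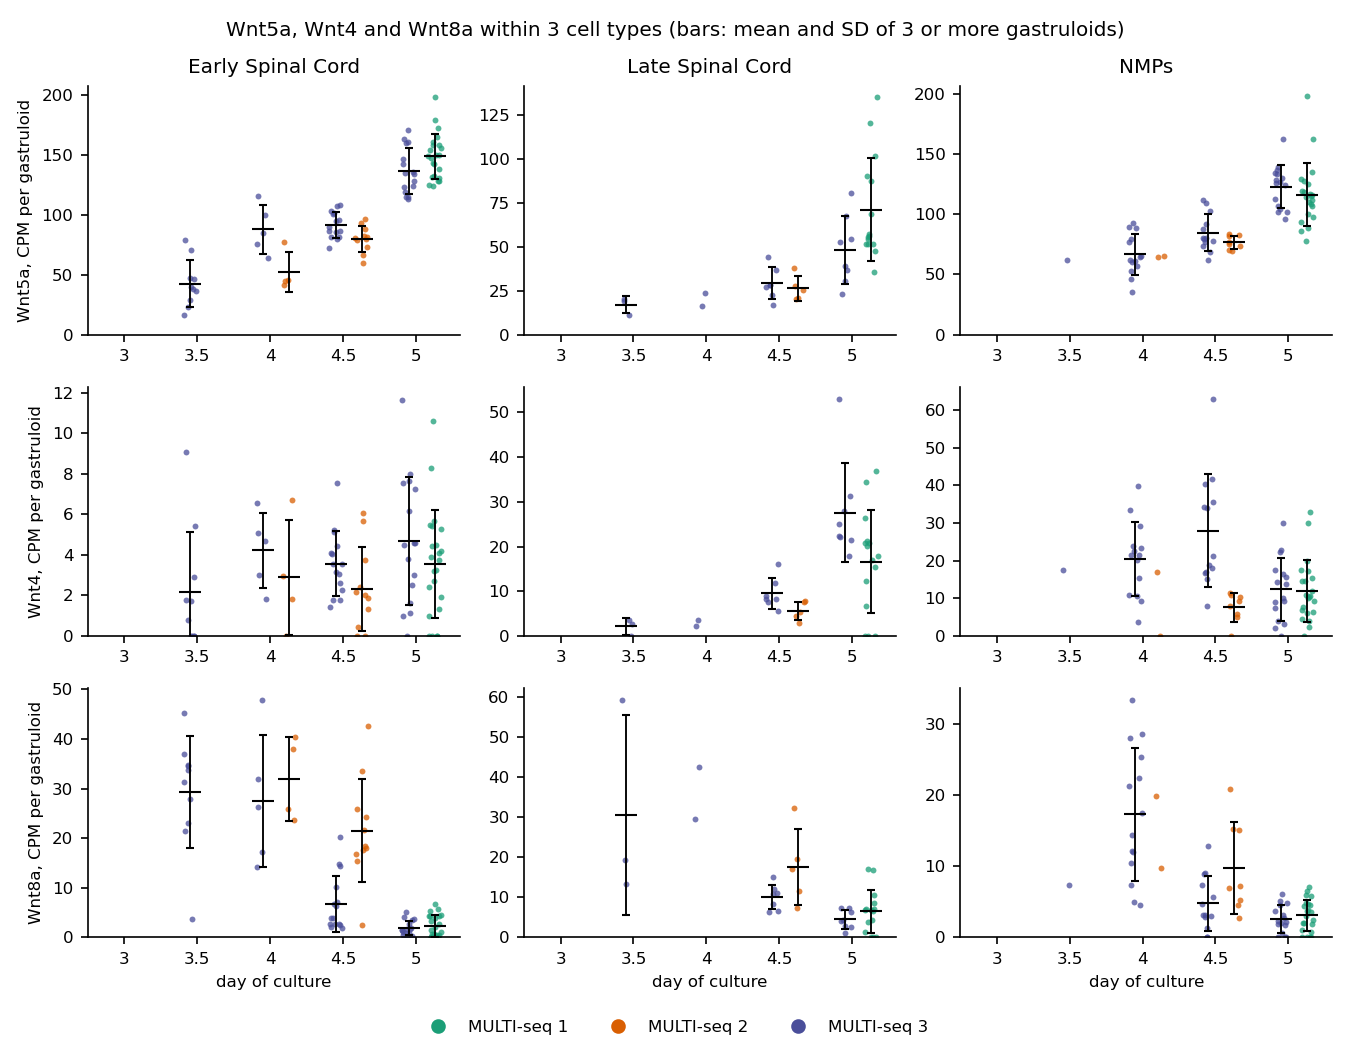
Wnt5a, Wnt4 and Wnt8a (rows; vertical axes CPM per gastruloid, 1 point per gastruloid) within Early Spinal Cord, Late Spinal Cord and NMPs (columns) by day of culture, coloured by experiment; bars are mean and SD of 3 or more gastruloids, cut at 0. Wnt5a in Early Spinal Cord was 91.8 CPM at day 4.5 and 136.8 at day 5 of MULTI-seq 3, and Wnt4 in Late Spinal Cord 9.55 and 27.6.

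Markers of neurons (Tubb3, Elavl3, Stmn2 and Neurog2) were lower at day 5 in all 4 of these types. Their summed level was 37.7 to 170 CPM at day 4.5 (median 87.8) and 10.5 to 40.3 at day 5 (median 25.6) in Early Spinal Cord, and medians were 108 and 37.6 in Late Spinal Cord, 93.0 and 20.5 in NMPs and 36.4 and 13.2 in Late Posterior PSM. Somite markers in Late Posterior PSM had medians of 116 and 249.2 CPM. In Late Posterior PSM Neurog2 was at 0, and elsewhere no marker of the Neurons list was. The part of these differences in the member results was not tested. Among mesodermal gastruloids 4 of 12 member tests were called (5.11% of gene tests), with Wnt5a +0.62 in Early Spinal Cord, and among neural ones 6 of 13 (4.01% of gene tests), with Wnt5a +0.42 there. The rise of Wnt5a in NMPs was +0.44 among mesodermal gastruloids (edgeR adjusted p = 0.000944) and +0.49 among neural ones, not called with 4 against 4 (0.0509).

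In MULTI-seq 2 between days 4 and 4.5 Late Posterior PSM alone could be tested. Wnt3a and Wnt5a were tested there and 0 were called by edgeR or DESeq2, with 0 at an unadjusted p under 0.05, against 1.13% of 6275 genes. The same held among mesodermal gastruloids, where 0.982% of genes were called. With no filter, Wnt6 was called lower in these cells (6.30 ± 4.36 CPM, n = 6, and 1.22 ± 1.24, n = 8; -2.13, edgeR adjusted p = 0.0215).

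The last question was whether neural and mesodermal gastruloids of day 5 differed in ligand levels beyond their makeup. The labels do not state how the authors assigned the classes, and a class effect on whole levels cannot be told apart from the makeup, so whole levels are a description. In MULTI-seq 1, Wnt4 was 14.9 ± 6.13 CPM in the 8 neural gastruloids (9.37, 12.8 and 27.6) and 3.98 ± 1.95 in the 7 mesodermal ones (1.62, 3.89 and 6.39), which do not overlap. The 9 intermediate gastruloids of MULTI-seq 1 had 4.75 ± 1.46 (2.30 to 7.06), overlapping the mesodermal ones and below all neural ones. In MULTI-seq 3 Wnt4 was 16.8 ± 3.05 (n = 4) in neural and 3.56 ± 1.41 (n = 8) in mesodermal gastruloids, with the intermediate mean between them (8.39 ± 1.86, n = 4). Wnt3a was lower in the neural class, with 3.15 ± 3.48 against 10.4 ± 4.56 CPM in MULTI-seq 1 and 1.30 ± 0.449 against 4.78 ± 0.907 in MULTI-seq 3. The first of these means rests partly on 1 neural gastruloid with 11.1 CPM, and the other 7 had 2.02 ± 1.49. Wnt8a had a higher mean there, with 4.87 ± 2.21 against 2.22 ± 0.829 in the first, where the classes overlap, and 4.33 ± 0.838 against 0.909 ± 0.368 in the other, where they do not. Earlier, Wnt8a was 56.3 ± 10.99 in 3 neural and 8.14 ± 5.13 in 8 mesodermal gastruloids at day 4 of MULTI-seq 2, without overlap.

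Within cell types the classes were compared where at least 3 gastruloids of each had 10 cells of the type. Depth differed between the experiments. Lane medians were 8287 to 15709 UMIs per cell in MULTI-seq 1 and 26466 to 30826 in the lanes of days 4.5 and 5 of MULTI-seq 3. Day 5 gastruloids held 1293296 to 8064678 UMIs in the first and 6752579 to 39522093 in the other. The part of depth in the calls and in the filter on low counts was not tested. In MULTI-seq 3, 3 of 13 member tests were called, 1 higher and 2 lower in mesodermal gastruloids, against 1.8% of 43971 gene tests (0.901% higher and 0.903% lower). In Early Spinal Cord (1.04% of genes called) Wnt4 was 6.15, 7.23, 7.98 and 11.6 CPM in the 4 neural gastruloids and 2.30 ± 1.66 (0 to 4.59) in the 8 mesodermal ones, without overlap (-1.66, SE 0.31, edgeR adjusted p = 0.00244). The filter on low counts asks for enough counts in as many gastruloids as the smaller class holds, here 4. Wnt4 could thus enter this test through the neural class alone, where it was higher, and the number called includes it. Without lane C this gene did not pass the filter, and DESeq2 gave it no p-value (NA). Intermediate gastruloids had 5.88 ± 1.98. In MULTI-seq 1 Wnt4 did not pass the filter in this type, and the classes overlapped, with 4.56 ± 2.35 CPM in 8 neural and 3.37 ± 4.12 in 6 mesodermal gastruloids.

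Wnt3a in NMPs (0.23% of genes called) was 15.8, 18.3, 26.4 and 35.7 CPM in neural and 44.8 ± 8.32 (36.5 to 62.8) in mesodermal gastruloids, again without overlap (+0.74, SE 0.17, edgeR adjusted p = 0.0136). That call was lost without lane B (adjusted p = 0.119), lane C (0.292), neural gastruloid 2 (0.0788) or neural gastruloid 7 (0.125). Wnt5a in Mature Somites (5.51% of genes called) was 13.4 ± 3.52 and 9.11 ± 1.51 CPM (-0.57, SE 0.15, edgeR adjusted p = 0.0471), a call lost in 11 of the settings that leave out a lane or a gastruloid (up to 0.401). With no filter on low counts, Wnt11 (1.82 ± 0.970 and 0.327 ± 0.282 CPM, -2.40, edgeR adjusted p = 0.0017) and Wnt3 (0.811 ± 0.410 and 0.109 ± 0.156, -2.83, 0.0212) were also called lower in Mature Somites of mesodermal gastruloids. In Mature Somites the 4 somite markers had medians of 1605 CPM in neural and 1370 in mesodermal gastruloids, in NMPs the PSM markers 332 and 368, and in Early Spinal Cord the Neurons list 35.4 and 20.6; their part was not tested.

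In MULTI-seq 1, at the lower depth given above, 0 of 7 member tests were called by edgeR or DESeq2, with 2 at an unadjusted p under 0.05. By edgeR, 1.74% of 28681 gene tests were called there. Early Spinal Cord had a median of 94 cells per neural gastruloid and 50 per mesodermal one. Wnt5b in Early Spinal Cord was 7.05 ± 4.07 CPM in 8 neural and 16.7 ± 2.61 in 6 mesodermal gastruloids, without overlap but not called (+0.88, SE 0.26, edgeR adjusted p = 0.0594). Wnt5a in NMPs was 138 ± 38.7 and 105 ± 14.1 CPM (-0.39, edgeR adjusted p = 0.136), called without lane 3 (-0.57, adjusted p = 0.0346). Wnt3a in NMPs was 39.1 ± 14.5 and 61.7 ± 17.3 CPM, with 7 of 7 mesodermal gastruloids above the neural median and no call (+0.37, edgeR adjusted p = 0.508). Wnt3a in Early Spinal Cord did not pass the filter; it was 0.845 ± 0.975 and 8.96 ± 4.87 CPM without overlap and was called with no filter (+2.75, edgeR adjusted p = 5.37e-05). In MULTI-seq 3 it was 0.179 ± 0.249 and 0.670 ± 0.743 CPM there, with overlap, at 0 in 2 of 4 neural and 3 of 8 mesodermal gastruloids. The class effects of the 2 experiments were also compared directly: 0 of 10 member tests were called by edgeR or DESeq2, with 1 at an unadjusted p under 0.05 (Wnt4 in Early Spinal Cord, -1.56, edgeR adjusted p = 0.715), against 0.0173% of 40382 gene tests.

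The other genes of the pathway are given as counts beside those over all genes, and no test of the lists was run. From day 3.5 to day 4, 46 of the 55 listed pathway genes were tested in whole gastruloids, and 21 were higher and 13 lower, with a median log2 fold change of 0.17 against 0.01 over all genes. Over all 13262 genes tested, 60.4% were called, 31.1% higher and 29.2% lower. Of 16 receptors and co-receptors 11 were higher and 3 lower, among them Fzd2 (+0.98, edgeR adjusted p = 3.31e-09) and Fzd4 (+1.44, 4.16e-07), both Frizzled receptors, and Ptk7, a co-receptor in planar cell polarity (-0.73, 3.71e-08). Of 9 feedback targets, genes that the canonical pathway itself switches on, 0 were higher and 6 lower (median -0.40), led by the transcription factor Sp5 (-1.14, edgeR adjusted p = 1.57e-08). Of 9 planar cell polarity genes 6 were higher and 2 lower. Day 3.5 held 10 neural and 6 mesodermal gastruloids and day 4 held 2 and 14, so class and day are mixed in these counts. The pathway genes were not compared within 1 class.

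The secreted antagonist Cer1, known as an inhibitor of Nodal and BMP, had the largest fold change among the named pathway genes (+4.6, SE 0.61, edgeR adjusted p = 2.17e-07), and Znrf3, which removes Frizzled receptors from the membrane, fell by 0.39 on the log2 scale (6.45e-07). Among the other Wnt genes tested, Wnt10a fell with Wnt3a and Wnt6 (-1.57, edgeR adjusted p = 0.000337). From day 4.5 to day 5, 5 of 46 were called, against 13.5% of all genes: Fzd2 (+0.17, edgeR adjusted p = 0.00305), Fzd8 (+0.83, 0.00693) and Lrp5 (+0.29, 0.0419) were higher, and Fzd10 (-0.43, 0.00724) and Znrf3 (-0.18, 0.024) lower. In MULTI-seq 2 between days 4 and 4.5, 3 of 45 were higher and 6 lower, against 7.36% of all genes called; Wls, which carries Wnt proteins to the membrane, rose (+0.50, edgeR adjusted p = 0.0024), as did Fzd3 (+0.60, 0.00375), and of 8 feedback targets 4 fell, among them Nkd1 (-0.62, 0.00055), Sp5 (-1.13, 0.000829) and Tcf7 (-0.51, 0.00432).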

How the data were processed

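Single-cell 3′ RNA libraries of 18 lanes were used as the authors deposited them, as raw UMI counts per gene and barcode. Per the file headers, Cell Ranger 6.0.0 made the counts, and the submitters' processing notes name Seurat and mm10. No source used here gives the gene annotation. Cells, cell type names, gastruloid calls and gastruloid classes came from the authors' deposited cell table, and cells without a call of 1 gastruloid entered no test. Doublets were not called again.

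UMI counts were summed per gastruloid, over lanes, for gastruloids of at least 30 cells, and per gastruloid and cell type for at least 10 cells. Sums were compared with edgeR 4.0.16 (R 4.3.3): TMM scaling, the default filter on low counts, the quasi-likelihood test and Benjamini-Hochberg adjustment over all genes (and types) of a comparison, with calls at 0.05. Standard errors are the fold change divided by the square root of F. The gastruloid is the replicate, and lanes are technical splits. Other work used Python 3.11.15. Alternatives were DESeq2 1.42.0 and its size factors, no filter, each lane left out, higher cell minimums, cells thinned to 5000 UMIs and each day 5 gastruloid of MULTI-seq 3 left out of the class test. Tests of type by day, marker sums and fits within 1 class were added after the data were seen. In simulated data of the day 4 against day 3.5 comparison (13369 genes), edgeR called 100 of 100 genes changed 4-fold, 92 of 100 changed 2-fold, and 7 others. DESeq2 called the same numbers of changed genes and 15 others. Only these genes were changed, all with a mean above 1 CPM and as many raised as lowered. In the real comparison 60.4% of genes were called, so the simulation does not measure power or error there, nor for members of lower counts.

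The members and lists were chosen with earlier results of these data known. The genes named were the 8 members, the 3 genes most like each, other Wnt genes of at least 5 CPM in a type, and up to 3 called pathway genes per direction with the smallest adjusted p in each whole-gastruloid comparison. The MULTI-seq 2 samples of days 3 and 3.5 were not analysed here, and lanes without gastruloid calls gave levels only.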

Additional observations from a re-analysis of the deposited data

Results flagged for a closer look

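At day 5, each of the 8 genes was checked in the 4 to 9 gastruloids of each class and experiment. Of these 48 sets of values, 7 held a gastruloid far from the others, where chance flags about 1 in 20 sets. The 8 genes share their gastruloids, so the sets are not independent. In MULTI-seq 1, 1 mesodermal gastruloid had 2.61 CPM of Wnt3 (the nearest had 1.11), and 1 neural gastruloid had both 11.1 CPM of Wnt3a (nearest 4.09) and 10.9 CPM of Wnt5b (nearest 6.18). In MULTI-seq 3, 1 mesodermal gastruloid had 2.41 CPM of Wnt3 (nearest 1.17), another had both 6.66 CPM of Wnt4 (nearest 4.22) and 88.4 CPM of Wnt5a (nearest 58.4), and 1 intermediate gastruloid had a low Wnt6 of 0.0374 CPM (nearest 0.633).

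Day effects that differed between cell types were the other group. Between days 3.5 and 4, the effect in Caudal Epiblast minus that in Early Posterior PSM was 2.87 for Wnt3a, 1.28 for Wnt5b, 1.14 for Wnt8a, 0.69 for Wnt5a and -1.59 for Wnt4. Between days 4.5 and 5, the effect on Wnt4 in NMPs minus that in Late Spinal Cord was -3.09. These tests were chosen after the values within each type had been seen.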

How the results depend on the processing

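Of 27 called member results, 20 kept their call and direction wherever they were tested, and none of the 27 reversed. Of these 20, 12 were tested under every alternative and 8 were not, as too few counts or gastruloids were left or DESeq2 gave no p-value; the values of the 7 that lost a call stand beside them in the report. The number of members called within types between classes at day 5 was 0 in MULTI-seq 1, and 1 with no filter on low counts or without lane 3. In MULTI-seq 3 it was 3, and 5 with no filter, 0 without lane C, where Wnt4 in Early Spinal Cord did not pass the filter, and 1 without neural gastruloid 2 or 7. For MULTI-seq 2 it was 0, and 1 with no filter within Late Posterior PSM, and in whole gastruloids 1 with no filter, with at least 100 cells, or among mesodermal gastruloids. For whole gastruloids from day 4.5 to day 5 it was 1, and 0 with cells thinned to 5000 UMIs, where 2 members passed the filter and Wnt8a did not, 0 among mesodermal gastruloids, and 2 among neural ones. Shares of all genes called are given above for the main settings and for single classes, not for the other alternatives. Without those shares, the counts are not a result about the members. Signs reversed only for results that were not called, 19 times. With a lane or gastruloid left out, Wnt4 in Mature Somites between classes, -0.03, ranged from -0.27 to 0.41, and was 0.14, 0.05, 0.03 and 0.03 without mesodermal gastruloids 15, 17, 18 and 20. Wnt8a in Caudal Epiblast, -0.01, was 0.034 with at least 20 cells, -0.024 to 0.073 with a lane left out and 0.038 among mesodermal gastruloids. Wnt5a in Mature Somites between days, -0.02, was 0.0049 with at least 20 cells, -0.17 to 0.17 with a lane left out and 0.12 among neural gastruloids. In MULTI-seq 2, whole-gastruloid values turned to -0.046 for Wnt5a without lane 2 (0.18 without lane 3) and 0.70 for Wnt8a with at least 100 cells. That minimum left out every neural gastruloid of day 4 (at most 92 cells) but kept neural ones of day 4.5. Day and class cannot be told apart under it. By class, Wnt8a was 8.14 and 6.57 CPM in mesodermal and 56.3 and 23.3 in neural gastruloids at days 4 and 4.5. In MULTI-seq 3, whole-gastruloid values turned to -0.23 for Wnt5a (day 4 against 3.5) and -0.80 for Wnt4 (day 5 against 4.5) among mesodermal gastruloids, and -0.071 for Wnt5a (day 5 against 4.5) among neural ones. Wnt3a in Late Posterior PSM between classes ranged from -0.24 without neural gastruloid 10 to 0.53 without neural gastruloid 2, and the class effect on Wnt4 in NMPs between experiments was 0.45 with DESeq2. The cause of these was not tested. No paired analysis was possible because, between days or classes, the replicate numbers in the labels are lanes of a pool, and gastruloids, the replicates here, carry no number shared between groups; the type-by-day tests alone, which compare types within gastruloids, had the gastruloid as a block. Depth limits Wnt11 and Wnt6 most: neither passed the filter from day 4.5 to day 5.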

Other observations

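Of the other 11 mouse Wnt genes, 5 reached 5 CPM in at least 1 cell type of MULTI-seq 3. Wnt2 was highest in Late Nascent Mesoderm (19.7 ± 19.9 CPM) and Early Nascent Mesoderm (11.2 ± 8.33), and Wnt16 in Head Mesoderm (13.1 ± 9.98), Late Anterior PSM (13.0 ± 6.89) and Mature Somites (11.7 ± 5.74). Wnt10a was found in NMPs (6.97 ± 5.00), Early Posterior PSM (6.96 ± 6.18) and Caudal Epiblast (5.30 ± 4.04), and Wnt8b in Early Posterior PSM (6.18 ± 5.82) and Early Anterior PSM (6.12 ± 3.78). Wnt1 reached 5.52 ± 14.5 in Late Neurectoderm, where 9 of 12 gastruloids were at 0.

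Lanes without gastruloid calls give 1 value each, with a 95% exact Poisson interval that covers counting error only. The day 3 lane (3058 cells) had 29.1 CPM of Wnt3 (27.7 to 30.6), 22.5 of Wnt3a (21.3 to 23.8), 36.0 of Wnt5a (34.4 to 37.6), 26.1 of Wnt5b (24.8 to 27.5) and 16.8 of Wnt8a (15.8 to 18.0). The day 4 lane (2440 cells) had 2.93 CPM of Wnt3 (2.41 to 3.53), 13.6 of Wnt3a (12.44 to 14.83), 5.62 of Wnt4 (4.88 to 6.43), 44.1 of Wnt5a (42.0 to 46.3) and 6.95 of Wnt8a (6.13 to 7.84). Wnt3 was thus lower and Wnt4, at 1.56 CPM on day 3 (1.25 to 1.93), higher in the later of these 2 lanes. The 2 lanes of a further MULTI-seq 2 pool of days 4 and 4.5 had 18.1 and 18.9 CPM of Wnt8a and 45.5 and 44.7 of Wnt5a.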
